A study of Mus musculus with 8 samples.

Results

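The genes described here are those of the Siglecs *Siglec1*, *Siglece*, *Cd33* and *Cd22*, of the receptor SIRPα (*Sirpa*) and its ligand CD47 (*Cd47*), and of the inhibitory receptors *Cd200r1*, *Lair1* and *Cd300a*. Members were the probe sets whose only gene symbol in the platform annotation is one of these names, which gave 17 probe sets of 22626 tested and 9 genes of 12393. The starting cells were immature myeloid cells (IMCs), sorted as CD11b+Gr-1+ from the spleens of 4 male *Tff2*-/- mice on a C57BL/6 background at 16 weeks of age. The mice had drunk 3% DSS, which injures the colon, for 5 days and then plain water for 14 days. Cells of each mouse were divided into a control culture with Csf2 (GM-CSF, 5 nM by the labels) and a culture with the same GM-CSF plus 3 µM mouse recombinant Tff2 (rTFF2), both for 7 days. Every culture therefore came from an animal without a *Tff2* gene and received GM-CSF, and the groups differed by the added peptide. RNA of the 8 cultures was measured on 1 Affymetrix array each, and the values are log2 signals.

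Siglecs are cell-surface lectins that bind sialic acids, the sugars that cap many glycans on mammalian cells. Most inhibitory receptors of myeloid cells carry short tyrosine motifs in their tails (ITIMs), which Src-family kinases phosphorylate and which then recruit the phosphatases SHP-1 and SHP-2 to dampen signals from activating receptors. The others described here read other cues. SIRPα binds CD47 on neighbouring cells and restrains phagocytosis, CD200R1 binds CD200 and signals through Dok adaptors, LAIR1 binds collagens and C1q, and CD300a binds phospholipids exposed on dying cells.

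The question was which of these receptors and ligands changed when IMCs met rTFF2. Of the 9 genes, each taken by its brightest probe set, 5 were higher with rTFF2 at an adjusted p under 0.05 and none was lower. These were *Cd33*, *Cd22*, *Sirpa*, *Cd47* and, at a very low signal, *Siglece*, with differences from 0.24 to 0.79 on the log2 scale. Over all 12393 genes 14.5% were called higher and 13.3% lower. Of the 7 member genes above background in a group 4 were higher and none lower, against 23.5% and 18.6% of the 6721 such genes. Of the 17 probe sets 11 were called higher and none lower, where 13.7% and 12.0% of all probe sets were called in these directions. Of all calls 53.3% were thus higher, and 42.3% after median centring of the arrays. In a fit of the probe sets above background in a group alone, 9 of 12 member probe sets were higher and none lower. Of all probe sets in that fit 23.8% were higher and 18.7% lower. Without mouse 1 or without mouse 3, 3 of the 9 genes were called higher. The median difference was 0.42 over the 17 probe sets and -0.02 over all probe sets. The test was limma with the mouse as a block over all 22626 probe sets. As a guide to background, the 95th percentile of the means over the 8 arrays of 46 genes typical of other tissues was used, at 4.32, and 12 of the 17 probe sets exceeded it in at least 1 group. The other 5, all 3 of *Siglec1*, that of *Siglece* and 1 of *Cd22*, lay under it in both groups and get no fold.

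**Figure D1:**
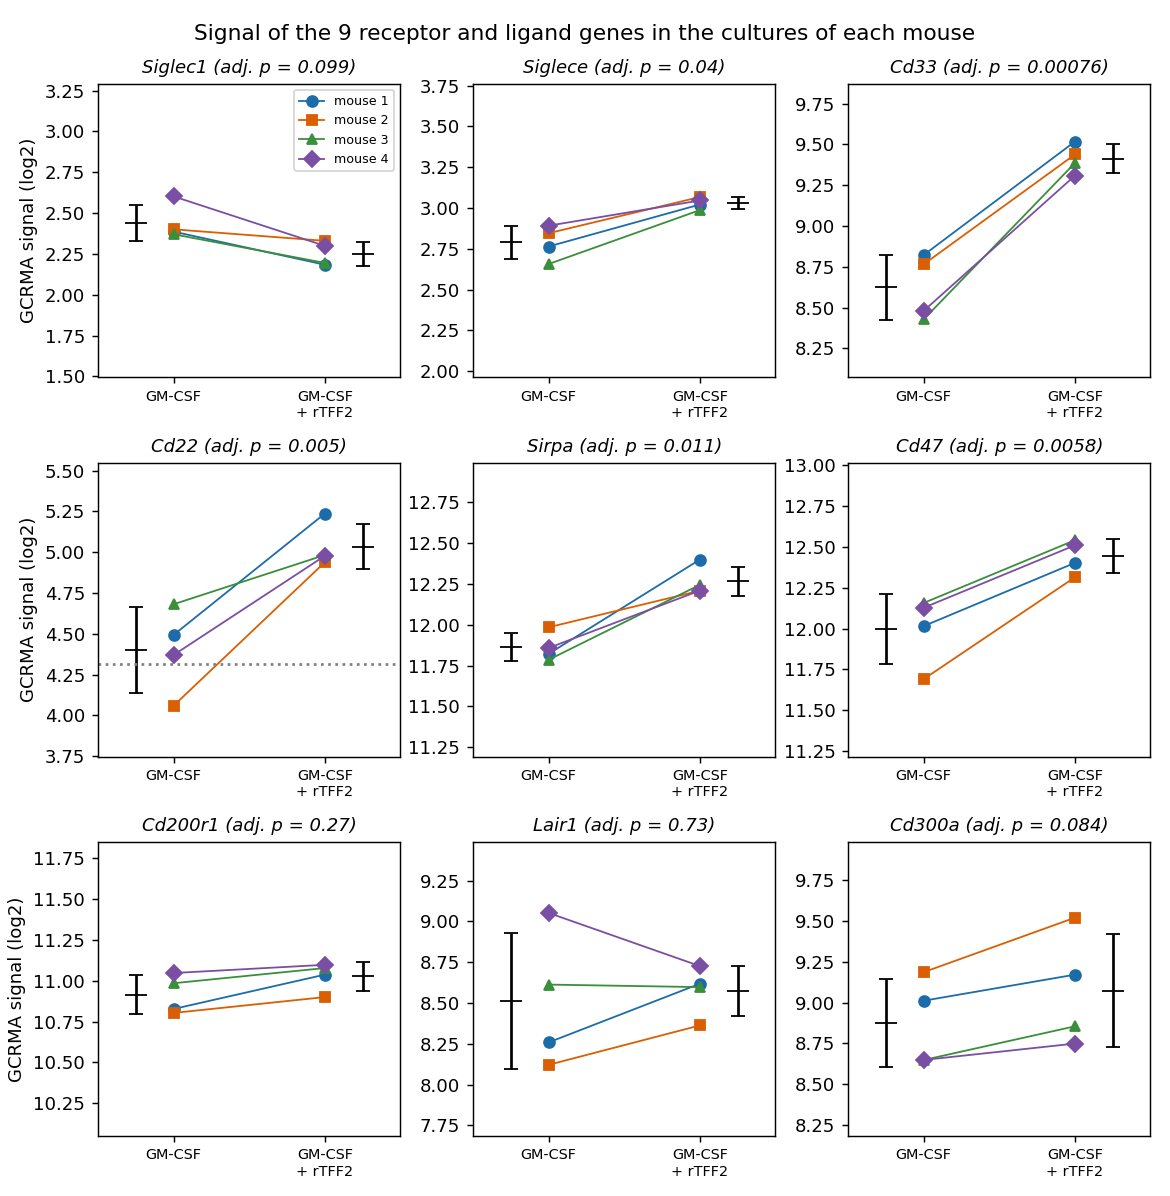
GCRMA signal (log2) of the brightest probe set of each gene, lines linking control and rTFF2 culture of each animal, bars giving mean and SD (n = 4), and a dotted line marking 4.32 where a panel reaches it. Each panel has its own scale and none starts at 0. *Cd33*, *Cd22*, *Sirpa* and *Cd47* lie higher with rTFF2 in each mouse, and the lines of *Lair1* run both ways.

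*Cd33* encodes CD33, a Siglec of myeloid cells, and rose the most. With GM-CSF alone its log2 signals in mice 1 to 4 were 8.82, 8.77, 8.43 and 8.48, and with rTFF2 they were 9.52, 9.44, 9.39 and 9.31. Every rTFF2 culture lay above every control culture, and the spread between mice was smaller with rTFF2. The means were 8.62 ± 0.20 and 9.41 ± 0.09 (SD, n = 4), a 1.73-fold rise (log2 difference 0.79, standard error 0.08, adjusted p = 7.6e-04 from limma). Its adjusted p stayed between 1.4e-04 and 0.0079 over all alternatives of the processing in which it was fitted.

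*Cd22* encodes CD22, a Siglec best known as an inhibitor of the B cell receptor, and its signal was low. The brighter probe set read 4.49, 4.06, 4.68 and 4.37 with GM-CSF alone and 5.24, 4.94, 4.98 and 4.98 with rTFF2. The groups did not overlap, and 3 of 4 control arrays and 4 of 4 rTFF2 arrays were above the background level. The rise was 1.55-fold (log2 difference 0.63, standard error 0.10, adjusted p = 0.0050). The dimmer probe set moved the same way, by 0.42 (adjusted p = 0.010), from 2.56 ± 0.13 to 2.98 ± 0.17 (SD, n = 4), under the background level throughout. After adding 32 to linear signals, an offset that shrinks dim differences, the difference of the brighter probe set was 0.28 (adjusted p = 0.028) and that of the dimmer one 0.08, which was no longer called (adjusted p = 0.0504). Of 12 measured markers of B cells none was called higher and 2 were lower, against 14.5% and 13.3% of all genes. In both groups 10 of them were under 4.32, among them the defining *Ms4a1*, *Cd79a*, *Cd79b* and *Pax5*. *Ighm* was above it on all arrays, with means of 5.97 and 6.26, higher in 3 of 4 mice and not called (adjusted p = 0.16). *Blnk* exceeded it in the control cultures and was lower with rTFF2 (4.84 and 3.93, adjusted p = 0.0063). The summed linear signal of the 12 was 132 to 163 in the control and 115 to 155 in the rTFF2 arrays. The part of B cells in the signal of *Cd22* was not tested.

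*Siglece* and *Siglec1* were close to the floor of the arrays. Siglec-E is an ITIM-bearing Siglec of neutrophils and macrophages, and its probe set read 2.76, 2.85, 2.66 and 2.89 with GM-CSF alone against 3.02, 3.07, 2.99 and 3.05 with rTFF2. These groups did not overlap and the difference was 0.24 (adjusted p = 0.040), but both lay under 4.32, and the call was lost after median centring of the arrays (adjusted p = 0.092), with the offset (adjusted p = 0.058) and without any 1 of the 4 mice (adjusted p from 0.072 to 0.137). Both group means exceeded 2.68, the 75th percentile of the same genes of other tissues, a level looked at after the values were seen. Siglec-1, or sialoadhesin, is an adhesion receptor of resident macrophages with no known inhibitory motif. Its 3 probe sets lay between 1.83 and 2.60 on all arrays, with differences of -0.19 (adjusted p = 0.099), -0.19 (adjusted p = 0.082) and -0.08 (adjusted p = 0.53). After median centring the middle one was called lower (adjusted p = 0.044).

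*Sirpa*, whose product carries ITIMs and answers to CD47, was strongly expressed and rose on all 3 of its probe sets. The brightest read 11.82, 11.98, 11.79 and 11.86 in the control cultures of mice 1 to 4 and 12.40, 12.21, 12.24 and 12.21 in the rTFF2 cultures. The groups did not overlap, and the rise was 1.32-fold (log2 difference 0.40, standard error 0.08, adjusted p = 0.011). This call was lost narrowly without mouse 1 (adjusted p = 0.052) and without mouse 3 (adjusted p = 0.051). The other probe sets were dimmer, with means of 6.82 and 4.90 in the control cultures, and rose 1.56-fold (adjusted p = 0.0019) and 1.59-fold (adjusted p = 0.0071), each in 4 of 4 mice and with no overlap between the groups.

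*Cd47* encodes the ligand of SIRPα, which is also a receptor for thrombospondin 1. All 4 of its probe sets rose in 4 of 4 mice. The brightest read 12.01, 11.69, 12.16 and 12.13 with GM-CSF alone and 12.40, 12.31, 12.54 and 12.51 with rTFF2, a log2 difference of 0.44 with a standard error of 0.07 (adjusted p = 0.0058). In both groups mouse 2 had the lowest value. Another pair of bright probe sets gave 1.52-fold each (adjusted p = 0.0016 and 0.0011), and their 95% intervals, 0.43 to 0.77 and 0.45 to 0.76 on the log2 scale, overlap that of the brightest, 0.27 to 0.62. The dimmest, at 3.74 ± 0.27 in the control cultures, had a difference of 0.64 (adjusted p = 0.0021) and was at least 1.05-fold higher, since its control level was under the background. Receptor and ligand of the SIRPα and CD47 pair both had higher transcript levels in the same cultures.

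*Cd200r1*, *Lair1* and *Cd300a* were well above background and passed no test. *Cd200r1* read 10.83, 10.80, 10.99 and 11.05 in the control cultures and 11.04, 10.90, 11.08 and 11.10 with rTFF2. It was higher in 4 of 4 mice by 0.05 to 0.21, with groups that overlapped and a difference of 0.11 (95% interval -0.05 to 0.27, adjusted p = 0.27).

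*Cd300a* read 9.01, 9.19, 8.65 and 8.65 with GM-CSF alone and 9.17, 9.52, 8.85 and 8.75 with rTFF2. Mice 1 and 2 were higher than mice 3 and 4 in both groups, so the groups overlapped while each mouse rose, by 0.10 to 0.33. Its difference was 0.20 (95% interval 0.03 to 0.37, adjusted p = 0.084), and adjusted p was 0.49 without the mouse as a block.

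*Lair1* went both ways. Its control cultures read 8.26, 8.12, 8.61 and 9.05 and its rTFF2 cultures 8.62, 8.36, 8.60 and 8.73, so mice 1 and 2 were higher by 0.36 and 0.24, mouse 3 was nearly level at -0.02 and mouse 4 was lower by a difference of -0.33. The rTFF2 cultures lay inside the range of the control cultures. The mean difference was 0.07 (95% interval -0.21 to 0.34, adjusted p = 0.73), and without mouse 1 it was -0.03. The intervals of these 3 genes leave room for small differences and do not show that the receptors kept their level.

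**Figure D2:**
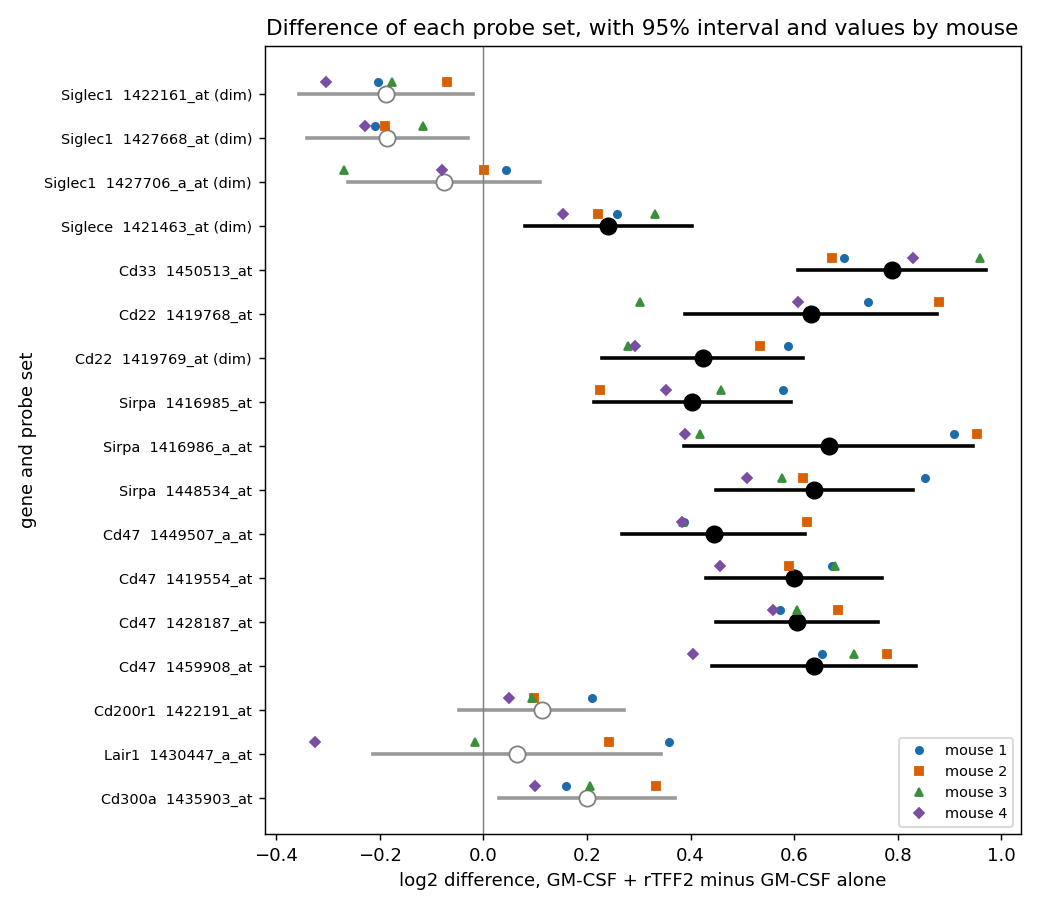
Log2 difference (rTFF2 culture minus control culture) of each of the 17 probe sets, with its 95% interval from limma as a bar, filled where the adjusted p was under 0.05, and the difference of each mouse as a small symbol above it. Probe sets marked dim lay under 4.32 in both groups. All 4 symbols lie to the right of 0 for 13 probe sets and to the left for 2.

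By mouse, 13 of the 17 probe sets were higher in 4 of 4 mice and 2 were lower in 4 of 4, against 21.5% and 23.5% of all probe sets. Groups did not overlap for 10 that were higher and 2 that were lower, against 12.8% and 12.7% of all probe sets. Both sets that were lower belong to *Siglec1* and were dim. The probe sets of a gene share their transcript and are not independent.

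The groups also differed in a measure of RNA quality and in the signal of markers of several cell types. For *Actb* the log2 signal of the 3′ control probe set minus that of the 5′ one, larger in degraded RNA, was 0.53 ± 0.09 in the control and 0.70 ± 0.05 in the rTFF2 cultures (SD, n = 4). It was higher with rTFF2 in 4 of 4 mice. A two-sided exact test over sign flips within mice gave p = 0.13, the lowest possible with 4 pairs, and the exact permutation test over splits of the arrays, which ignores the pairing, gave p = 0.029. The same difference for *Gapdh* was 0.22 ± 0.07 and 0.26 ± 0.04 (SD, n = 4), higher in 3 of 4 mice (p = 0.38 in the exact test over sign flips and 0.40 in that over splits). The *Actb* difference was 0.42 to 0.62 in the control and 0.66 to 0.74 in the rTFF2 cultures, so it separated the groups. With the *Actb* difference as a covariate and no block, 2 of the 17 probe sets were called higher, against 5.37% of all probe sets. These were that of *Cd33* (log2 difference 1.07, adjusted p = 0.0041) and the brightest of *Sirpa* (0.55, adjusted p = 0.024). *Lair1* was then at -0.35 and *Cd200r1* at -0.01, and the probe sets of *Cd47* at 0.16 to 0.45 with adjusted p from 0.25 to 0.65. Because the covariate separated the groups, this fit cannot tell RNA quality from rTFF2, here or where it is given below. The part of RNA quality in these results was not tested beyond it. Beside the marker counts that follow, 14.5% of all genes were called higher and 13.3% lower. Among genes above background in a group these shares were 23.5% and 18.6%. Of 14 neutrophil markers 14 were higher, and all of them exceeded 4.32 in a group. Their summed linear signal was 38169 to 71199 in the control and 93095 to 108637 in the rTFF2 arrays. Of 11 markers of basophils and mast cells 8 were higher, with sums of 211 to 517 and 4269 to 7834, while *Il4*, *Tpsb2*, *Cma1* and *Mcpt4* were under the background level. Of 14 dendritic cell markers 11 were lower, with sums of 29437 to 37867 and 8573 to 12526, and *Flt3*, *Cd209a* and *Xcr1* were under the background level. In bulk cultures more cells of a type and more RNA per cell cannot be told apart, and the part of these cell types in the receptor genes was not tested. Of 11 general myeloid markers 5 were higher and none lower, by 0.34 to 0.60, namely *Cd68*, *Cybb*, *Cebpb*, *Fcgr3* and *Itgam* (CD11b), the last at 12.35 and 12.72. All 11 were above background in both groups, with sums of 61924 to 72615 and 78636 to 84934, while no probe set of *Ly6g* or *Ly6c1* alone, the Gr-1 antigens, was analysed here.

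**Figure D3:**
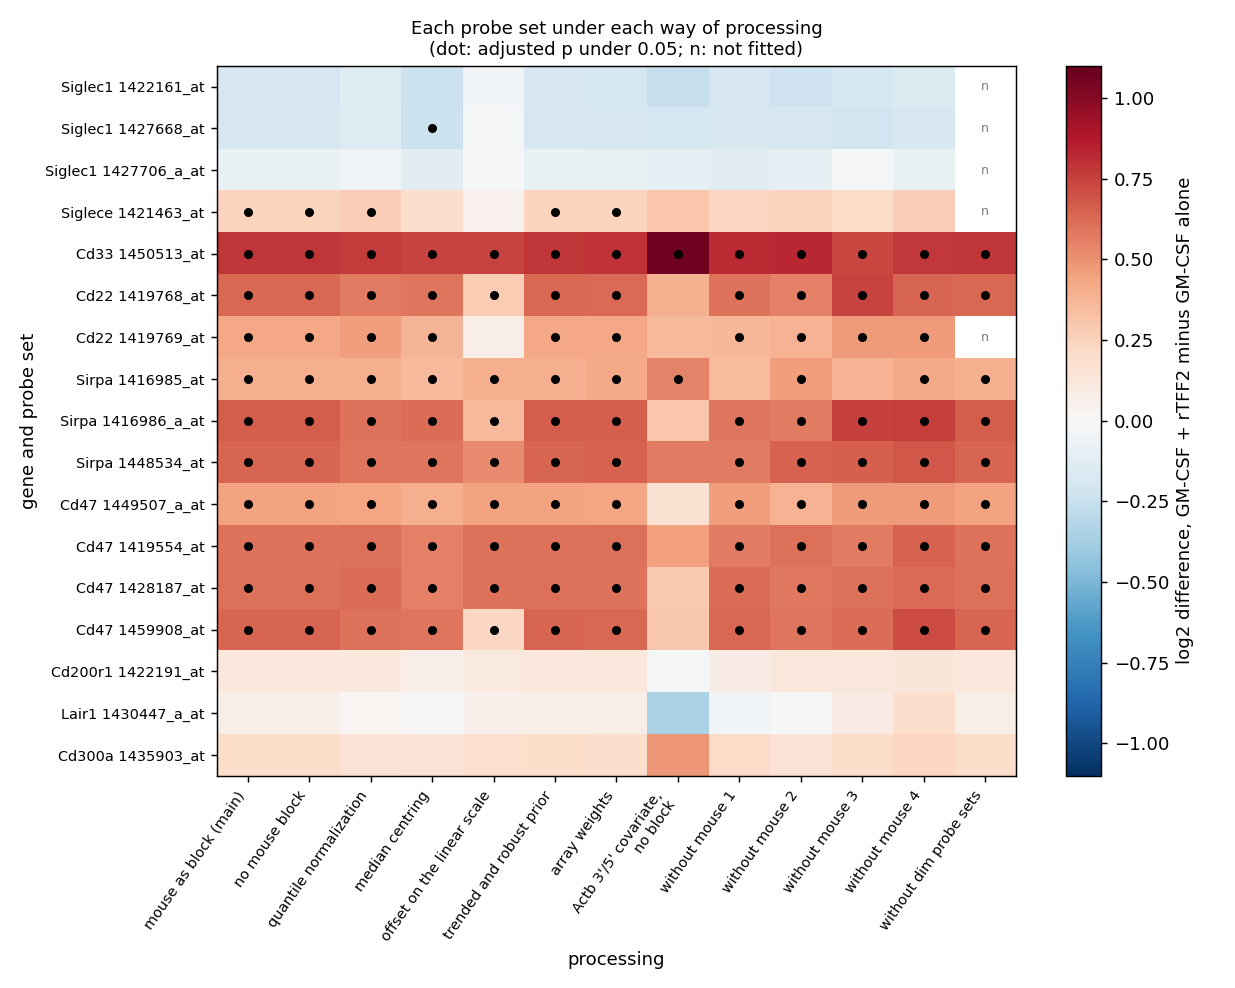
Log2 difference of each probe set, as colour, under the ways of processing named along the x axis, with a dot where the adjusted p was under 0.05 and n where the probe set was not fitted. The row of *Cd33* keeps its dot in every column shown, and the column with the *Actb* covariate holds 2 dots.

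The cultures whose *Cd33* was high were also high in many other genes. Of 6720 other genes above background in a group, those most like *Cd33* over the 8 cultures included *Cr1l* (Pearson r = 0.995), which encodes a complement regulator, and *Hdc* (0.994), the histidine decarboxylase of basophils, mast cells and other myeloid cells. *Cr1l* differed by 0.74 and *Hdc* went from 6.87 ± 0.46 to 8.53 ± 0.07 (SD, n = 4). In all 149 genes had r over 0.95, and the difference between the groups makes up much of each such correlation.

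Promoter sequences from RefSeq (GRCm38.p6) were given for 6 of the 9 genes, and 4 are shown, those of the 3 called genes above background that have one and of *Cd300a*, which was not called. Each runs 5′ to 3′ over the 250 bases before an annotated start, on the strand of the gene. All 4 windows lie inside the annotated span of their gene, which begins further upstream. Capitals mark matches, on either strand, to GAGGAA, a core bound by PU.1 and other ETS factors of myeloid cells, or to TTGCNNAA, a C/EBP-type site. No base of a match was shared with another motif.
*Cd33*, chr7:43533172-43533421, minus strand: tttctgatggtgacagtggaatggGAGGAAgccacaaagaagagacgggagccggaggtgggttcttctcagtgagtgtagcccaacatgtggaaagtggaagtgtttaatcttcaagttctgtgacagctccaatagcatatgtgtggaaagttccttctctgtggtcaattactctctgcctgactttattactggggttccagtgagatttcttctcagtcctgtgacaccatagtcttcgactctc
*Cd22*, chr7:30879029-30879278, minus strand: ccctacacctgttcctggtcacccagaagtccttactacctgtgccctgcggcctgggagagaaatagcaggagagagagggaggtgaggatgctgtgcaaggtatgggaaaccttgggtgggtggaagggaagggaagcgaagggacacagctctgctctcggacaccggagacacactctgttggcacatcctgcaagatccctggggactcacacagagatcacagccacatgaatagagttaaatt
*Cd47* (the more upstream of a pair of starts), chr16:49855404-49855653, plus strand: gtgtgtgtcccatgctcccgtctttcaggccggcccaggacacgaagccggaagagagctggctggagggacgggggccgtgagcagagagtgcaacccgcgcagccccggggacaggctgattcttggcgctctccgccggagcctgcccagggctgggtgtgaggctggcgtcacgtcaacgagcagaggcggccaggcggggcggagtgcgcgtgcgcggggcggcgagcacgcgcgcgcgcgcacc
*Cd300a*, chr11:114889791-114890040, plus strand: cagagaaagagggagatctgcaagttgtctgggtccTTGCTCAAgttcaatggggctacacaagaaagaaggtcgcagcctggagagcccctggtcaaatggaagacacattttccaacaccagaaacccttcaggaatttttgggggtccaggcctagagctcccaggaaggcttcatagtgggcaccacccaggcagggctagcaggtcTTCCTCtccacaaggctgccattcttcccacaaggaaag

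The window of *Cd33* held 1 match to GAGGAA, that of *Cd300a* held 1 match to each motif, and those of *Cd22* and *Cd47* held none. Of the 6 genes with a promoter 4 held GAGGAA, also *Siglece* with 3 matches and *Lair1* with 1, and 2 held TTGCNNAA, *Lair1* and *Cd300a*. Over all 32851 promoters the shares were 23.3% and 9.56%. The letters TGANTCA (AP-1, 6.75% of all) and TTCNNNGAA (STAT, 7.02%) were in none of the windows of these genes. The window of *Cd47* was GC-rich, at 73.2%, against 46.8% for *Cd33*. Matches occurred in windows of genes that were called and of genes that were not, and they describe letters only.

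A list of other receptors, most of them inhibitory, moved further, and both ways. Of 16 measured, 8 were called higher and 6 lower, with a median difference of 0.38 against -0.03 over all genes. *Pecam1*, called higher, and *Cd5*, called lower, had means under 4.32 in both groups. Of the 14 above background in a group 7 were higher and 5 lower, against 23.5% and 18.6% of all such genes. *Pirb*, an ITIM receptor for MHC class I, read 9.24, 9.56, 9.58 and 9.61 with GM-CSF alone and 10.54, 10.54, 10.44 and 10.47 with rTFF2, a rise of 2.00-fold (adjusted p = 6.3e-04). *Cd300lf*, a relative of *Cd300a* in the same receptor family, rose 1.66-fold (adjusted p = 9.0e-04). The inhibitory lectin *Klrb1b* fell at least 14.0-fold, from 8.37 ± 0.54 to 4.26 ± 0.64 (SD, n = 4), and *Cd72*, another inhibitory co-receptor best known from B cells, fell at least 5.01-fold, from 6.64 ± 0.18 to 3.49 ± 0.20 (adjusted p = 5.7e-05 and 5.9e-05). *Siglecf*, the Siglec of eosinophils, was lower in 4 of 4 mice, with a difference of -0.51 (adjusted p = 0.0030) and groups that overlapped. Mouse 2 had the lowest value in both groups, at 7.85 and 7.36. It is named after its values were seen, as another Siglec. Of 6 eosinophil markers, *Siglecf* among them, 3 were higher and 1 lower, against 14.5% and 13.3% of all genes. *Ccr3* and *Il5ra* were under the background level. The sums of the 6 were 810 to 3292 in the control and 4414 to 10884 in the rTFF2 arrays. The count of higher receptors was 5 without the block and 5 without mouse 1.

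Many activating receptors pair with adaptors, some but not all of them ITAM-bearing, and the inhibitory ones oppose their signals. Of 14 genes of activating receptors, their adaptors and downstream kinases, 10 were called higher and none lower (median 0.40). Of the 12 above background in a group 10 were higher and none lower, against 23.5% and 18.6% of all such genes. *Hcst*, which encodes the adaptor DAP10, read 5.12, 4.94, 5.48 and 5.67 in the control cultures and 6.82, 6.52, 6.74 and 6.71 with rTFF2, a 2.63-fold rise (adjusted p = 4.7e-04). The kinase gene *Syk*, whose product docks on ITAM adaptors, rose 1.64-fold (adjusted p = 0.0011), the lectin receptor *Clec5a* 1.58-fold (adjusted p = 0.0011) and the receptor *Trem3* 2.83-fold (adjusted p = 0.0022). The adaptor *Tyrobp* (DAP12), named after its values were seen, rose by 0.35 on the log2 scale (adjusted p = 0.010). Without the block 7 of these genes were called higher, and 4 without the block and with the *Actb* covariate.

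Behind the ITIM stand kinases, phosphatases and adaptors. Of their 19 measured genes 4 were called higher and 4 lower (median 0.10). Of the 17 above background in a group 3 were higher and 4 lower, against 23.5% and 18.6% of all such genes. *Ptpn6*, which encodes SHP-1, was at 11.67 ± 0.13 and 11.68 ± 0.13 (SD, n = 4, 95% interval of the difference -0.16 to 0.19, adjusted p = 0.92). *Ptpn11* (SHP-2) differed by 0.15 (adjusted p = 0.13) and the lipid phosphatase *Inpp5d* (SHIP1) by 0.15 (adjusted p = 0.19). These 3 were named after their values were seen. The Src-family kinase *Fyn* fell at least 5.16-fold (adjusted p = 2.7e-04), and *Dok2*, an adaptor through which CD200R1 signals, fell by 0.59 on the log2 scale (adjusted p = 0.0058), a call lost with the *Actb* covariate and no block (adjusted p = 0.11). The adaptor *Fyb* rose 2.26-fold (adjusted p = 0.0011) and *Socs3*, a feedback inhibitor of cytokine signalling, 1.75-fold (adjusted p = 0.0016). The count of lower genes was 2 without the block, 2 without mouse 3 and 2 with the *Actb* covariate and no block.

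Among 16 ligand genes 1 was called higher and 5 lower (median -0.10), and 11 were under 4.32 in both groups, the collagens and *Cd200* among them. Of the 5 above background in a group 1 was higher and 3 lower, against 23.5% and 18.6% of all such genes. *Thbs1*, which encodes thrombospondin 1, a ligand of CD47, rose 1.43-fold from a bright 12.94 ± 0.16 to 13.45 ± 0.09 (SD, n = 4, adjusted p = 0.0024). That call was lost with the *Actb* covariate and no block (difference 0.33, adjusted p = 0.22). The chains of C1q, a ligand of LAIR1, fell. *C1qa* read 10.17, 8.26, 10.11 and 10.11 with GM-CSF alone and 6.78, 5.55, 7.29 and 7.37 with rTFF2, a 7.54-fold fall (adjusted p = 6.2e-05). *C1qb* fell 3.00-fold (adjusted p = 4.1e-04) and *C1qc* 2.67-fold (adjusted p = 0.013). For *C1qc* the groups overlapped, and the call was lost without the block (adjusted p = 0.095) and without mouse 3 (adjusted p = 0.064). The control culture of mouse 2 was the lowest of its group for all 3 chains. The count of lower ligand genes was 2 without the block and 2, 3 and 3 without mouse 3, 1 or 4.

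Sialic acids, the sugars that Siglecs bind, are attached by sialyltransferases. Of 24 genes of their synthesis, transfer and removal, 6 were called higher and 8 lower (median -0.08). Of the 19 above background in a group 6 were higher and 6 lower, against 23.5% and 18.6% of all such genes. *St6gal1*, whose enzyme adds the linkage that CD22 prefers, read 7.31, 6.42, 7.81 and 7.80 in the control cultures and 4.10, 4.14, 5.38 and 5.16 with rTFF2. All rTFF2 cultures lay below all control cultures, with 2 of 4 rTFF2 arrays above the background level, and the fall was 6.24-fold, a log2 difference of -2.64 (adjusted p = 1.3e-04). Its size depended on the processing. The difference was -1.41 for the mean of the probe sets of the gene (adjusted p = 2.6e-04) and -1.73 with the offset (adjusted p = 0.0089). *St3gal5*, the GM3 synthase, fell 2.04-fold (adjusted p = 5.7e-04) and *St3gal6* at least 1.30-fold (adjusted p = 4.8e-04). *Npl*, whose product breaks down free sialic acid, rose 2.27-fold (adjusted p = 6.6e-04). The count of lower genes was 5 without mouse 3, 7 without the block, and 4 without the block and with the *Actb* covariate.

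**Figure D4:**
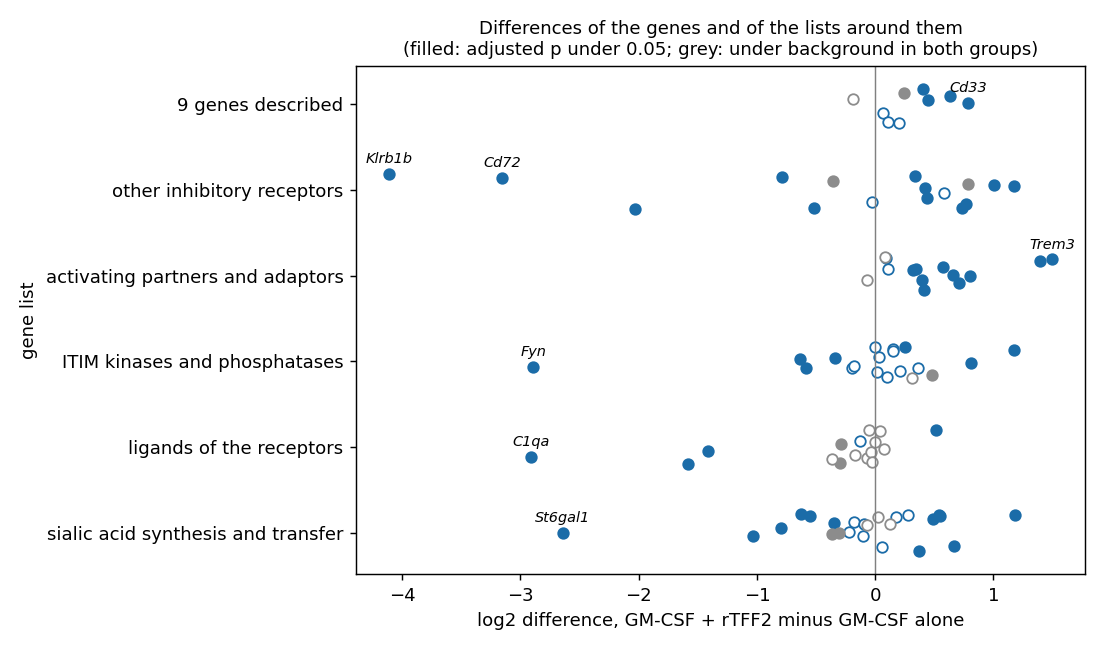
Log2 difference (rTFF2 cultures minus control cultures) of each measured gene, 1 point per gene, for the 9 genes described and for 5 lists of genes around them, filled where the adjusted p was under 0.05 and grey where neither group exceeded 4.32. Points of the 9 genes lie between -0.19 and 0.79, and those of other inhibitory receptors reach from -4.11 for *Klrb1b* to 1.17 for *Ceacam1*.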

How the data were processed

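The authors hybridized RNA of 8 cultures to Affymetrix mouse expression arrays and deposited log2 values made with GCRMA, which corrects background by probe base content, normalizes the arrays to 1 distribution and summarizes probe sets. GCRMA 2.30.0 and affy 1.36.0 appear in the submitters' processing notes. Groups and replicate numbers came from the labels, and the number was taken as that of the mouse. Nothing was renormalized, and array medians lay between 4.09 and 4.20. Of 22690 probe sets, 64 controls were left out, and 20380 of the others had 1 gene symbol. All 17 member probe sets matched RefSeq by gene identifier with the same symbol.

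Tests used limma 3.58.1 (lmFit, eBayes) under R 4.3.3, with the mouse as a block, Benjamini-Hochberg adjustment over 22626 probe sets and a threshold of 0.05. The methods name limma and state that cells were divided between the cultures, but no paired test. Both cultures of a number were taken to come from the same mouse. Deviations from the group means over 11311 probe sets had correlations of 0.03, 0.55, 0.33 and 0.40 within mice 1 to 4 and of -0.552 to 0.345 between different mice, so mouse 1 and mouse 3 lay inside the range of different mice. A gene was its probe set with the highest mean. The exact permutation test ran over every split of the arrays. The genes of other tissues included 3 above the resulting background level. Only 4 mice stand behind each mean, which limits its precision.

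The members, the lists and the tests were chosen with earlier results of these data known, so counts are a description. Named were every member, up to 4 called genes of each of 5 lists with the smallest adjusted p and a group above background, and the 3 genes most correlated with the called member of the largest rise, of which 1 is not reported here. Others are said to be named after their values were seen. Alternatives were no block, no dim probe sets, quantile normalization, median centring, an offset of 32, array weights, a trended and robust prior, omission of each mouse, the *Actb* 3′ to 5′ difference as a covariate, the mean of a gene's probe sets and a threshold of 0.01. The fit was also run on simulated data, as a check of the code only, and no result here rests on it. Protein sequences of the members were not used here. Figures were drawn with matplotlib 3.10.9.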

Additional observations from a re-analysis of the deposited data

Results flagged for a closer look

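In groups of 4 cultures, 8 values stood apart from the other 3, with a gap to the nearest that exceeded Dixon's 95% critical value relative to the range of the group. They came from 74 groups examined, and chance gives about 1 in 20. For *Siglec1* the control culture of mouse 4 read 2.60 against 2.37 to 2.40 in the others, under the background level. For *Cd22* the rTFF2 culture of mouse 1 was the highest on both probe sets, at 5.24 against 4.94 to 4.98 and at 3.23 against 2.86 to 2.92. For a bright probe set of *Cd47* the rTFF2 culture of mouse 2 read 11.85 against 12.23 to 12.25. The control culture of mouse 2 was low for *C1qa*, at 8.26 against 10.11 to 10.17, for *C1qc*, at 5.49 against 7.67 to 8.02, and for *Klrb1b*, at 7.57 against 8.58 to 8.69. The control culture of mouse 1 was low for *Pirb*, at 9.24 against 9.56 to 9.61. Their causes were not tested.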

How the results depend on the processing

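Without the mouse as a replicate block, that is without pairing, 11 member probe sets and 5 member genes were called higher and none lower, as with it, and 2636 of all probe sets were higher and 2291 lower. The block changed no call of a member, and of the other genes named by rule that of *C1qc* alone. Without it the inhibitory receptors called higher were 5, the lower ITIM genes 2 and the lower ligands 2. With the *Actb* covariate, which separated the groups, and no block, 2 member probe sets (2 genes) were higher. Of all probe sets 1216 were then higher and 1079 lower. The higher counts were 3 for inhibitory receptors, 4 for activating partners, 2 for ITIM genes and 0 for ligands, the lower counts 2 for ITIM genes, 2 for ligands and 4 for sialic acid genes, and the differences of *Cd200r1* (-0.010) and *Lair1* (-0.35) changed sign. Median centring called 1 member probe set lower, that of *Siglec1*, and made 42.3% of all calls higher against 53.3%. With the offset, 5 inhibitory receptors were higher, and 2 ITIM genes, 2 ligands and 4 sialic acid genes lower. Without dim probe sets 3 ligands were lower, and with the mean of a gene's probe sets 5 sialic acid genes. At a threshold of 0.01, 3 member genes, 4 inhibitory receptors, 6 activating partners and 1640 probe sets were higher, and 2 ITIM genes, 2 ligands, 4 sialic acid genes and 1266 probe sets lower. Leaving out each mouse in turn gave 9 to 10 higher member probe sets, 3 to 4 higher member genes (3 without mouse 1 or 3), 5 to 9 higher inhibitory receptors, 2 to 3 lower ITIM genes, 2 to 6 lower ligands, 5 to 7 lower sialic acid genes, 2016 to 2708 higher and 1593 to 2298 lower probe sets (fewest without mouse 1), and *Lair1* at -0.033 (without mouse 1) to 0.20. Fewer mice leave fewer degrees of freedom. The causes of the other shifts were not tested. *Cd33* kept its direction and call in every alternative fitted. Quantile normalization, the trended and robust prior and array weights changed no call of a member probe set. GCRMA itself was not varied.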
